A study of Homo sapiens with 5 samples.

Results

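TEAD4 occupancy was examined at the genes that encode the TEAD transcription factors themselves and the proteins that bind to them: TEAD1, TEAD2, TEAD3, TEAD4, the coactivators YAP1 and TAZ (gene WWTR1), and the vestigial-like cofactors VGLL1, VGLL2, VGLL3 and VGLL4. A TEAD4 peak was assigned to one of these 10 genes, out of 20033 protein-coding genes, when its summit (the base with the highest signal) was inside the gene or within 50 kb of any of its transcription start sites (TSSs) in GENCODE release 44, hg38. This assigned 33 of the 21113 peaks of the list, each to a single gene. The peaks came from chromatin immunoprecipitation followed by sequencing (ChIP-seq) in LX-2, a human hepatic stellate cell line with a myofibroblastic phenotype, so all values come from 1 established line in culture. All cells had been grown in medium with fetal bovine serum and had received only DMSO, the solvent of the study's compounds, and no treated group belongs to this ChIP-seq. There were 3 TEAD4 immunoprecipitations, of which the authors left out replicate 2 as not concordant with the others, and 2 input samples, 1 shared by replicates 1 and 2 and 1 for replicate 3. The single list of peaks was made from replicates 1 and 3 together. It holds no value per replicate, so no spread between replicates can be given and no difference was tested, and since reads of single samples were not analysed here their depth is unknown. The list has no expression values, so the identity of the cells was not checked against marker genes, and a peak says nothing of whether the gene beside it was transcribed.

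TEAD proteins bind DNA through a shared TEA domain but need a partner to change transcription. YAP1 and TAZ are the effectors of the Hippo pathway: when the kinases of this pathway are inactive, they enter the nucleus, bind TEAD proteins and activate genes for growth, adhesion and matrix, and YAP1 is known as a driver of stellate cell activation in liver fibrosis. VGLL proteins contact TEAD proteins through their own short motifs and can take the place of YAP1 and TAZ, and VGLL4 is the best known as an antagonist of YAP1.

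The sequence that TEAD proteins prefer is ACATTCC, read on either strand. Of the 33 peaks, 9 held it at most 100 bp away from the summit, and these 9 sites are shown because they are the places where TEAD4 signal and its own preferred sequence met at the genes of the TEAD pathway. Each is written 5′ to 3′ on the strand of the motif from the hg38 sequence, with the 7 bases of the motif in capitals.
TEAD1, intron, chr11:12900793-12900823, minus strand: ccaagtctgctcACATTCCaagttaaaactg
YAP1, promoter, chr11:102110273-102110303, minus strand: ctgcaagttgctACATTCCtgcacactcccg
WWTR1, upstream, chr3:149784166-149784196, plus strand: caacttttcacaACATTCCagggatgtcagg
WWTR1, intron, chr3:149673410-149673440, plus strand: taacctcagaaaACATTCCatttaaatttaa
WWTR1, 5′ end, chr3:149736346-149736376, plus strand: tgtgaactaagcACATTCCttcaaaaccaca
VGLL3, intron 3, chr3:86961351-86961381, minus strand: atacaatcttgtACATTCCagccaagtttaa
VGLL3, intron 1, chr3:86983017-86983047, minus strand: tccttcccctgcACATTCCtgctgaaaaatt
VGLL3, intron 1, chr3:86984494-86984524, plus strand: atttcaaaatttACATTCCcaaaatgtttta
VGLL4, intron 1, chr3:11641330-11641360, plus strand: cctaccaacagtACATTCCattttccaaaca
The sites lay in 5 genes, and neither TEAD3 nor TEAD4 was among them. The distance from the middle of the motif to the summit was 2 bp at its smallest, in intron 1 of VGLL3, and 83 bp at its largest, in the intron of WWTR1.

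TEAD4 peaks were found at 7 of the 10 genes, against 56.2% of all protein-coding genes by the same rule. The genes without a peak were TEAD2, VGLL1 and VGLL2. VGLL3 had 10 peaks, WWTR1 had 7, TEAD1 had 5, YAP1 and VGLL4 had 4 each, TEAD4 had 2 and TEAD3 had 1, whereas the median protein-coding gene with any peak had 2. A summit within 2.5 kb of a TSS was seen at 6 genes (TEAD1, TEAD4, YAP1, WWTR1, VGLL3 and VGLL4), against 16.6% of protein-coding genes. This count takes any annotated TSS, of which VGLL4 had 18 and WWTR1 had 11. A peak with the TEAD motif was seen at 5 genes, against 24.2%, and one of the 1000 strongest peaks of the list at 3 genes (TEAD1, TEAD4 and VGLL4), against 5.89%.

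**Figure D1:**
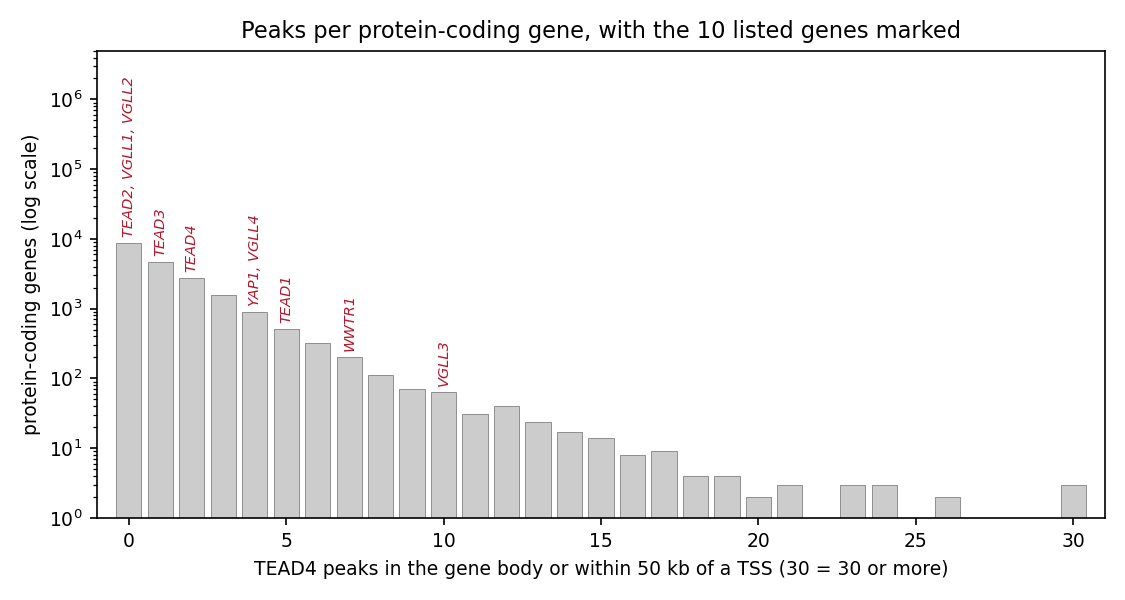
The horizontal axis gives the number of TEAD4 peaks assigned to a gene and the vertical axis, on a log scale, the number of protein-coding genes with that many peaks; the last bar holds genes with 30 or more. The 10 listed genes are written above the bar they belong to, from 0 peaks (TEAD2, VGLL1, VGLL2) to 10 peaks (VGLL3).

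The number of peaks was set beside the length of the stretch searched, which was 320.3 kb for TEAD1, 302.4 kb for VGLL4, 296.4 kb for WWTR1, 216.5 kb for YAP1 and 164.8 kb for VGLL3, against a median of 112.4 kb for protein-coding genes. VGLL3, with the most peaks, thus had the shortest stretch of these 5 genes. Per 100 kb searched, TEAD1 had 1.56 peaks, WWTR1 had 2.36 and YAP1 had 1.85. These densities were reached by 24.9%, 12.4% and 20.4% of protein-coding genes. VGLL3, with 6.07 peaks per 100 kb, was the densest of the 10 genes, and only 0.684% of protein-coding genes were as dense. Some peaks of VGLL3 overlapped each other and were counted separately, and 15.9% of the peaks of the list overlapped another. The density with overlapping peaks merged is not given here. By contrast, TEAD4 and VGLL4 had 1.32 peaks per 100 kb each, a density reached by 27.5% of protein-coding genes, and TEAD3 had 0.999, reached by 34.4%. The order of the genes by number of peaks was therefore not their order by density: TEAD1 came after YAP1 once length was taken into account.

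**Figure D2:**
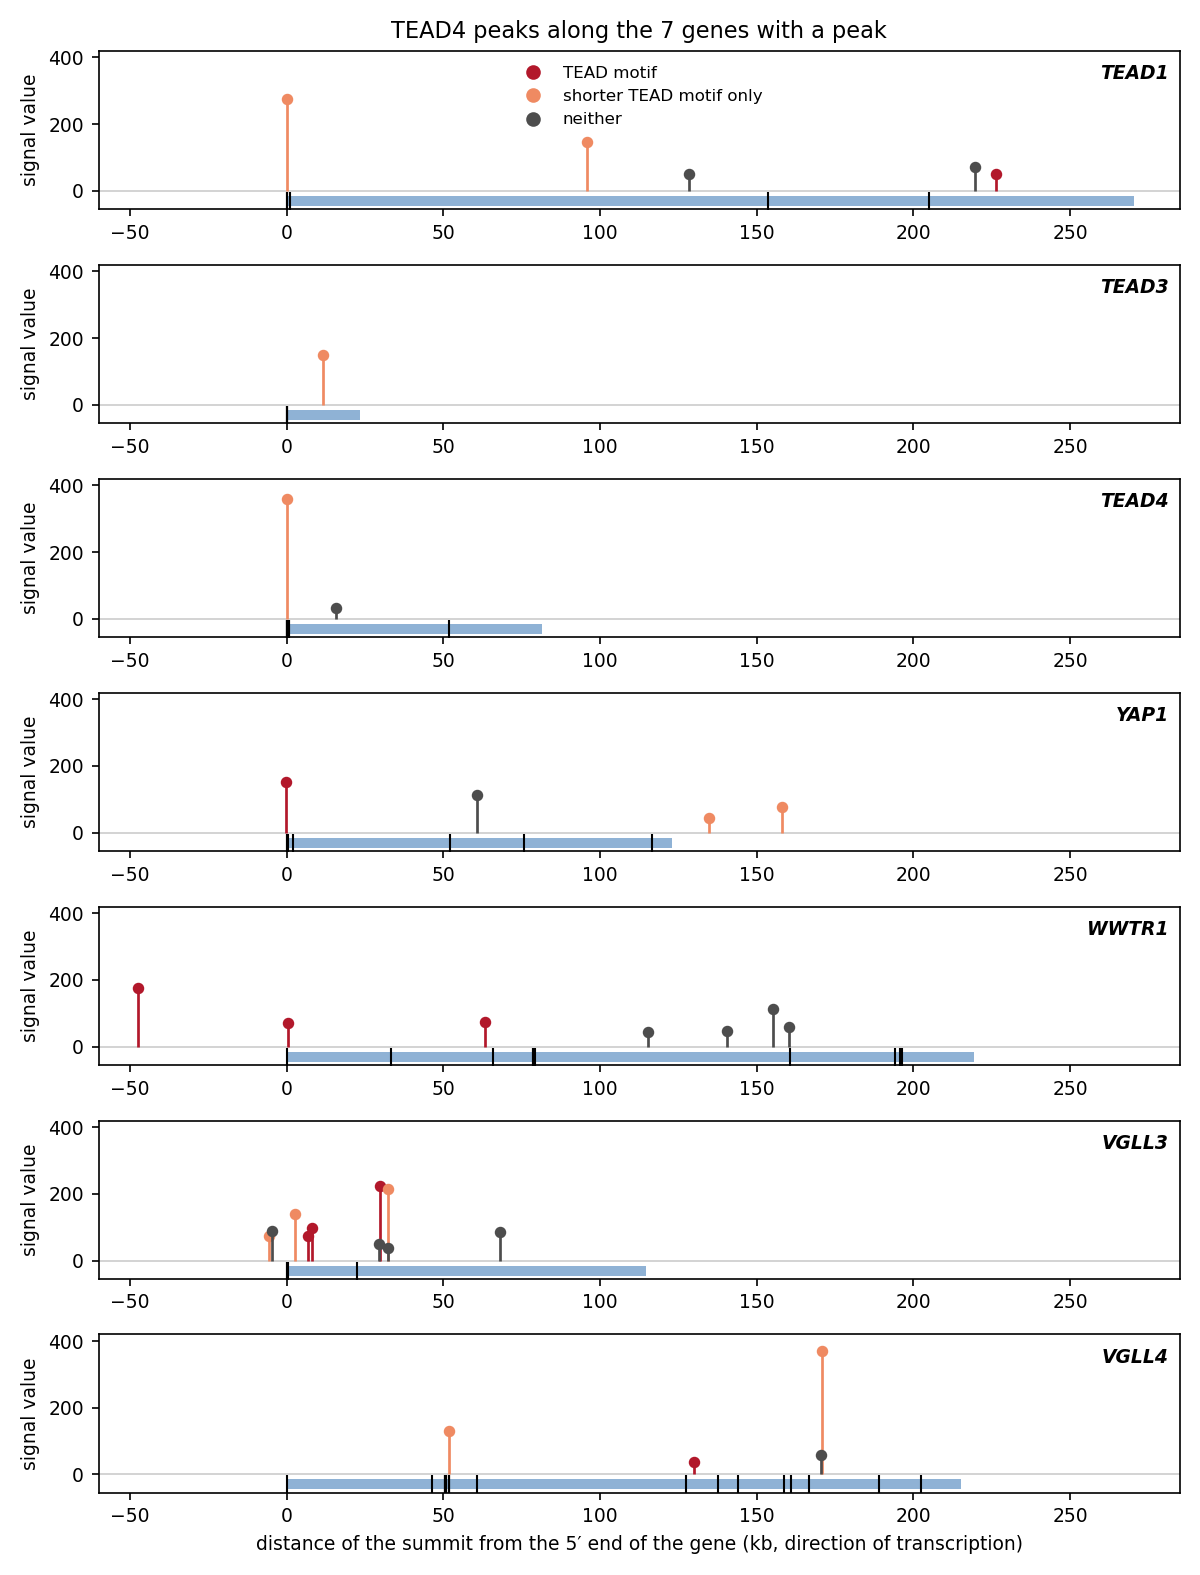
Each panel shows 1 of the 7 genes with a peak, drawn in its direction of transcription from its 5′ end at 0 kb (blue bar, gene body; black ticks, TSSs), and each stem is a peak summit whose height is its signal value. Red marks peaks with the TEAD motif, orange peaks with only its shorter form, and grey peaks with neither; the tallest stems of TEAD1 and TEAD4 stand at the 5′ end, that of VGLL4 lies 170.8 kb inside the gene, and that of WWTR1 lies 47.5 kb upstream of it.

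Among the TEAD genes, TEAD1 and TEAD4 each carried 1 strong peak on the TSS. The signal value, the strength the peak caller gave to each peak on a scale that the sources used here do not define, was 359.9 at the TEAD4 promoter (chr12:2959253-2959586). It ranked 419 among the 21113 peaks, and its summit was 15 bp downstream of a TSS, in the UTR of exon 1 of the MANE Select transcript (the reference transcript agreed between RefSeq and Ensembl). TEAD4 therefore had one of the strongest peaks of its own immunoprecipitation at its own promoter, and the strongest peak of 4.67% of the 11252 genes with a peak was as high. The only other peak of TEAD4 lay in intron 2 (chr12:2974693-2975136), 15.0 kb downstream of the nearest TSS. It was the weakest of all 33, with a signal value of 31.4, and held none of the motifs searched.

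At TEAD1, a broadly expressed member of the family, the strongest peak (chr11:12674271-12674584) had a signal value of 276.1 and ranked 940. Its summit was 1 bp before the 5′ end of the gene. The next, in intron 3 (chr11:12770023-12770301), had a signal value of 145.8 and lay 95.7 kb from the 5′ end. The other peaks were weaker and lay deeper in the gene. Their signal values were 70.2 (chr11:12893999-12894442, intron 9), 51.7 (chr11:12900564-12901007, intron 9) and 49.7 (chr11:12802508-12802951, intron 3). Of the 5 peaks of TEAD1, only the one with a signal value of 51.7 held ACATTCC, so that its TEAD motif peak was the second weakest of the gene. The TSS of a lncRNA, ENSG00000254688, was nearer than any TSS of TEAD1 to the peaks in intron 3, at 53.5 kb and 20.9 kb.

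TEAD3 had a single peak, in intron 2 and 11.4 kb downstream of the nearest TSS (chr6:35485404-35485640), with a signal value of 148.6. The shorter sequence CATTCC was centred on its summit. No summit was within 2.5 kb of a TSS of TEAD3, which set it apart from TEAD1 and TEAD4.

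The strongest peaks of TEAD1, TEAD3 and TEAD4 had in common that they lacked ACATTCC and held CATTCC without the leading A. The stretches that hold these copies are shown on the plus strand of hg38 for this reason, with each CATTCC in capitals. Those of TEAD1 and TEAD3 include the summit, whereas that of TEAD4 ends shortly before it.
TEAD1, TSS, chr11:12674402-12674431: tcatttCATTCCtgtcctCATTCCgaacat
TEAD4, exon 1, chr12:2959383-2959411: tCATTCCagccctCATTCCgcgCATTCCa
TEAD3, intron 2, chr6:35485491-35485571: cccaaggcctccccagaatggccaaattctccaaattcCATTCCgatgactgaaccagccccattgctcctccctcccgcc
In TEAD4 the shorter sequence occurred 3 times on the same strand, with 12 and 9 bp from start to start. In TEAD1 it occurred 2 times on the same strand, also 12 bp apart, and the summit fell on the second copy, with an uncertainty of 1 bp in how the list counts summits.

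YAP1 had 1 peak at its promoter and 3 at a distance. The promoter peak (chr11:102110178-102110421) was the strongest, with a signal value of 151.9 and rank 3219. Its summit was 152 bp upstream of the TSS, in an exon of the lncRNA ENSG00000277459, and the ACATTCC shown above was 7 bp from the summit. Among the promoter peaks of the 10 genes with a summit within 1 kb of a TSS, those of YAP1 and of the 5′ end of WWTR1 were the ones with ACATTCC. Within 2.5 kb, a peak in intron 1 of VGLL4, 2.49 kb from a TSS, held it too. The peak in intron 3 of YAP1 (chr11:102171190-102171422) had a signal value of 114.0 and held the AP-1 motif TGACTCA instead.

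The remaining peaks of YAP1 lay downstream of the gene. The TSS of a lncRNA, ENSG00000254422, was nearer to them than any TSS of YAP1, at 14.2 kb and 37.7 kb. The nearer of them (chr11:102244940-102245383) had a signal value of 43.1 and the farther (chr11:102268441-102268884) one of 76.3. Both held CATTCC without the leading A, and the nearer also held the AP-1 motif. They had IDR scores (reproducibility between the replicates, with 1000 as the ceiling) of 986 and 975, whereas the peaks at the promoter and in intron 3 were at the ceiling.

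WWTR1, the gene of TAZ, had 7 peaks over 296.4 kb, none of them among the 1000 strongest of the list, and 3 of them with ACATTCC, as many as VGLL3. The strongest (chr3:149784063-149784308) had a signal value of 177.1 and held ACATTCC 7 bp from the summit. It lay 47.5 kb upstream of WWTR1, in an intron of ANKUB1, whose TSS was 903 bp away. This was the only one of the 33 peaks for which the TSS of another protein-coding gene was nearer.

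Within WWTR1, the second strongest peak (chr3:149581330-149581456) had a signal value of 113.6, lay in intron 2 and held the RUNX motif TGTGGTT. A peak at the 5′ end of the gene (chr3:149736151-149736594) had a signal value of 71.0. Its summit was 342 bp downstream of the outermost annotated TSS and upstream of the MANE Select transcript, which starts further inside the gene. In the 5′ end sequence above, the last 7 bases, aaccaca, are the RUNX motif on the other strand, so that the TEAD and RUNX motifs stood within the same 31 bp at this peak. The third ACATTCC peak, 2.60 kb upstream of a TSS inside the gene (chr3:149673287-149673730), had a signal value of 75.1. It too lay upstream of the MANE Select transcript. The peak nearest to any TSS (chr3:149576041-149576484) had its summit 10 bp from an alternative TSS that lies 160.5 kb inside the gene, and a signal value of 59.8. It lay in intron 2 of the MANE Select transcript. Neither WWTR1 summit within 2.5 kb of a TSS was thus at the start of that transcript. The other 2 peaks of WWTR1 had signal values of 46.2 and 45.0, and the latter had the lowest IDR score of the 33 peaks, at 863. The TSS of a lncRNA, WWTR1-IT1, was nearer to this last peak, at 28.8 kb, than any TSS of WWTR1.

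VGLL3, a cofactor known from fibroblasts and muscle, was the gene with the most peaks: 10, of which 8 lay in its introns and 2 upstream of it. As many peaks or more were found at 1.16% of protein-coding genes. The strongest peaks were a pair in intron 3, at chr3:86961261-86961651 with a signal value of 222.4 and at chr3:86958502-86958822 with one of 215.8. The former held ACATTCC and a further CATTCC, and the latter CATTCC alone. Each of them overlapped a second, weaker peak with its own summit, with signal values of 48.9 and 36.2, so that the 10 peaks formed 8 separate stretches.

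The peak of VGLL3 nearest to a TSS was in intron 1 (chr3:86988306-86988545). It had a signal value of 139.5, held CATTCC and lay 2.30 kb downstream of the TSS. Further peaks with ACATTCC lay in the same intron, at chr3:86982813-86983256 with a signal value of 98.3 and at chr3:86984272-86984715 with one of 73.4. Upstream of the gene, 4.62 and 5.61 kb from the TSS, were peaks with signal values of 88.2 (with the AP-1 motif) and 72.3 (with CATTCC). These last 5 summits, from intron 1 to upstream, fell within 13.7 kb, and 2.66% of the peaks of the list lay in runs of 5 summits as tight as this one. No other protein-coding TSS was nearer than 230.5 kb to any of the 10 peaks.

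VGLL4, the antagonist of YAP1, had the strongest of the 33 peaks, with a signal value of 370.3 and rank 393 (chr3:11600407-11600818). It lay in intron 2, 3.99 kb downstream of the nearest TSS, and the strongest peak of 4.43% of genes with a peak was as high. Its sequence is shown because, as the strongest peak of the set, it held no CATTCC within 40 bp of the summit on either strand (plus strand of hg38).
VGLL4, intron 2, chr3:11600550-11600630: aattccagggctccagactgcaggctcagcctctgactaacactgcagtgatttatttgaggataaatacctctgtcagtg
The one CATTCC within 100 bp was 86 bp from the summit. A second summit in the same interval, 199 bp away, had a signal value of 59.7 and the AP-1 motif within 100 bp. At the TSS of an alternative VGLL4 transcript (chr3:11719495-11719729), a peak with a signal value of 130.5 had its summit 7 bp downstream of the TSS, in the UTR, and held CATTCC. The weakest peak of VGLL4, in intron 1 and 2.49 kb downstream of a TSS (chr3:11641206-11641649), had a signal value of 38.1 and was the one with ACATTCC. Its IDR score was 916.

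TEAD2, VGLL1 and VGLL2 had no peak by the rule, and the distance from their TSSs to the nearest peak differed widely. For VGLL2, a cofactor known from skeletal muscle, the nearest summit was 58.4 kb away and weak, with a signal value of 32.0 (chr6:117206915-117207358). For TEAD2 it was 80.6 kb away with a signal value of 182.4 (chr19:49442952-49443234). VGLL1, on the X chromosome, was the most remote, with the nearest summit at 271.2 kb (chrX:136260926-136261036, signal value 79.4). The letters ACATTCC were not lacking there: the stretches searched held 8 copies at TEAD2, 18 at VGLL1 and 20 at VGLL2. Per 100 kb these were 7.60, 15.2 and 20.0 copies. None could count as at a peak, since these stretches hold no summit. Whether an unlisted site lay below the threshold of the list cannot be said from it.

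Over all 33 peaks the median signal value was 76.3, with an exact 95% binomial interval of the median from 59.8 to 130.5, and the median of the list, 68.1, lay inside this interval. Values ran from 31.4 to 370.3, and 22 of the 33 peaks (66.7%) were above the median of the list. The IDR score was at its ceiling in 28 of 33 peaks (84.8%, against 76.1% of the list), and all 33 had the same −log10 q-value of 4.76. Within a gene the strength could span nearly the whole range, as from 359.9 to 31.4 at TEAD4 and from 370.3 to 38.1 at VGLL4.

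**Figure D3:**
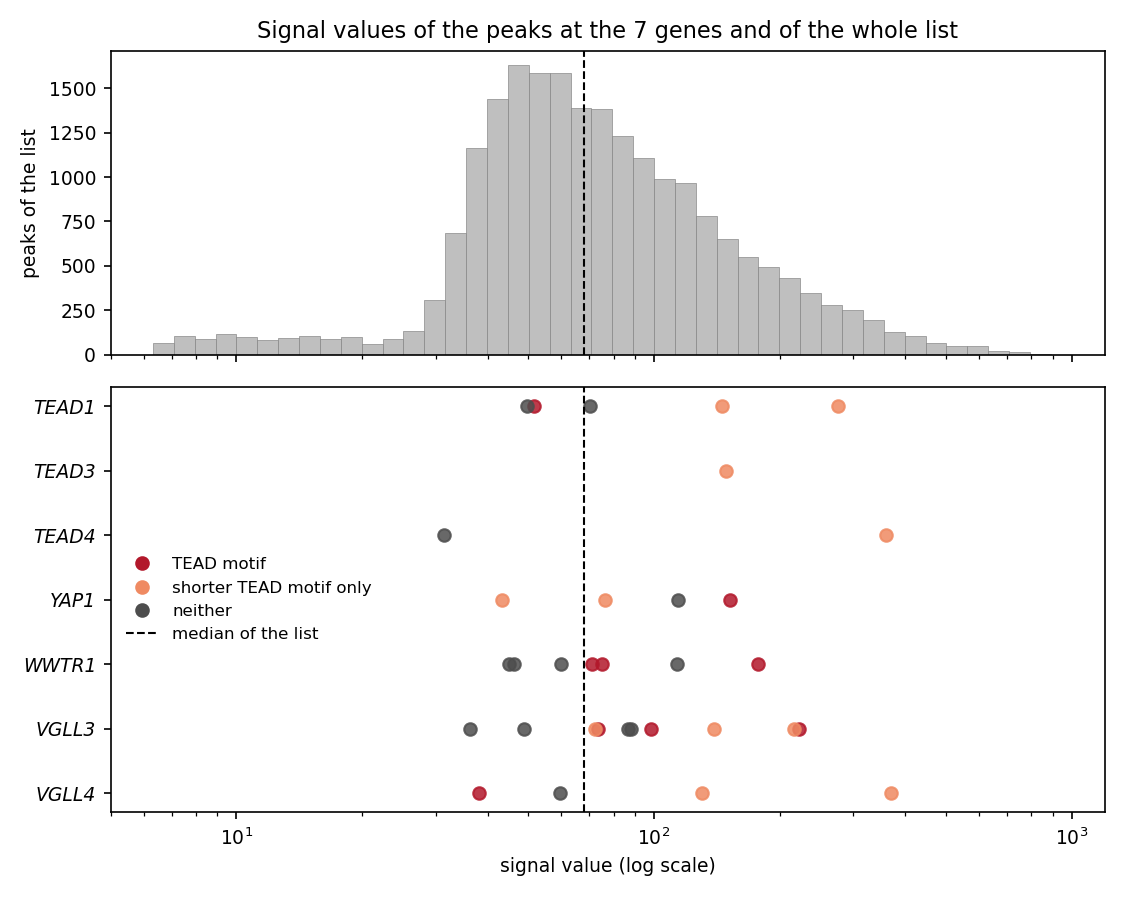
The upper panel is the distribution of signal values (log scale) over the 21113 peaks of the list, and the lower panel shows the 33 peaks by gene, coloured by motif, with the median of the list (68.1) as a dashed line. The peaks of each gene with more than 1 peak fall on both sides of that median, and every peak at 130.5 or above has ACATTCC or its shorter form. The value 130.5 was picked as that of the last peak before the first with neither form.

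By position, 24 peaks lay in introns of their gene, 2 in UTRs and 7 outside the gene. A summit within 2.5 kb of a TSS of any protein-coding gene was seen in 9 of the 33 peaks, with the WWTR1 peak beside ANKUB1 among them. These 9 had a median signal value of 139.5 and the other 24 one of 74.2. Over the list, the 3983 peaks within the same distance of a protein-coding TSS had a median of 63.2 and the others one of 69.3, the opposite order. With 9 peaks and no replicate values, this difference has no error to be set against, and the split was looked at after the values were seen. The GC content was also singled out after the values were seen. The windows around the summits at the promoters of TEAD1, TEAD4, YAP1 and VGLL4 had a GC content of 74.6%, 78.6%, 76.6% and 77.6%. These 4 made up 12.1% of the 33 peaks, whereas 2.33% of the list had a GC content of at least 70%. The median over the 33 peaks, 44.8%, was the same as that of the list.

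The motif ACATTCC was present in 27.3% of the 33 peaks (9; Wilson 95% interval 15.1 to 44.2%), against 23.0% of the list and 2.81% of flanking windows, which were equally wide and centred 2000 bp before and after each summit of the list. CATTCC, which includes every ACATTCC, was present in 60.6% (20 peaks; interval 43.7 to 75.3%), against 46.8% of the list and 10.6% of the flanking windows. For both forms the share of the list lay inside the interval of the 33 peaks. All intervals cover counting error only, and peaks of the same gene are not independent of each other.

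The motifs of other factors were less frequent. The AP-1 motif TGACTCA, read on both strands and bound by FOS and JUN proteins that often share sites with TEAD proteins, was present in 4 peaks (12.1%, interval 4.82 to 27.3%), against 25.4% of the list. They were 2 peaks of YAP1, 1 of VGLL3 and 1 of VGLL4. None of the 33 peaks held ACATTCC and the AP-1 motif together, compared with 4.49% of the list, and 20 held neither (56.1% of the list). The RUNX motif TGTGGTT was present in 3 peaks, all at WWTR1 (9.09%, interval 3.14 to 23.6%, against 9.54% of the list). The E-box CAGATG was present in 5 peaks of TEAD1, WWTR1 and VGLL4 (15.2%, interval 6.65 to 30.9%), against 16.7% of the list and 13.7% of the flanking windows.

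Ordered by signal value, the 11 strongest of the 33 peaks, down to 130.5, all held CATTCC, at 7 of 7 genes with a peak. The cut at 130.5 was set at the last peak before the first one without CATTCC. That all 11 held it therefore follows from where the cut was set. In the list, to which the cut was not fitted, 61.2% of the 4173 peaks with a signal value as high held CATTCC. Of the 11 peaks below the median of the list, 3 held it, against 39.8% of such peaks in the list. The full ACATTCC was present in 3 of the 11 strongest peaks (27.3%, at VGLL3, WWTR1 and YAP1), against 32.5% of the peaks of the list that were as high. The other 6 ACATTCC peaks ran from 98.3 at VGLL3 down to 38.1 at VGLL4. This ordering was noticed after the values were seen and was not tested.

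**Figure D4:**
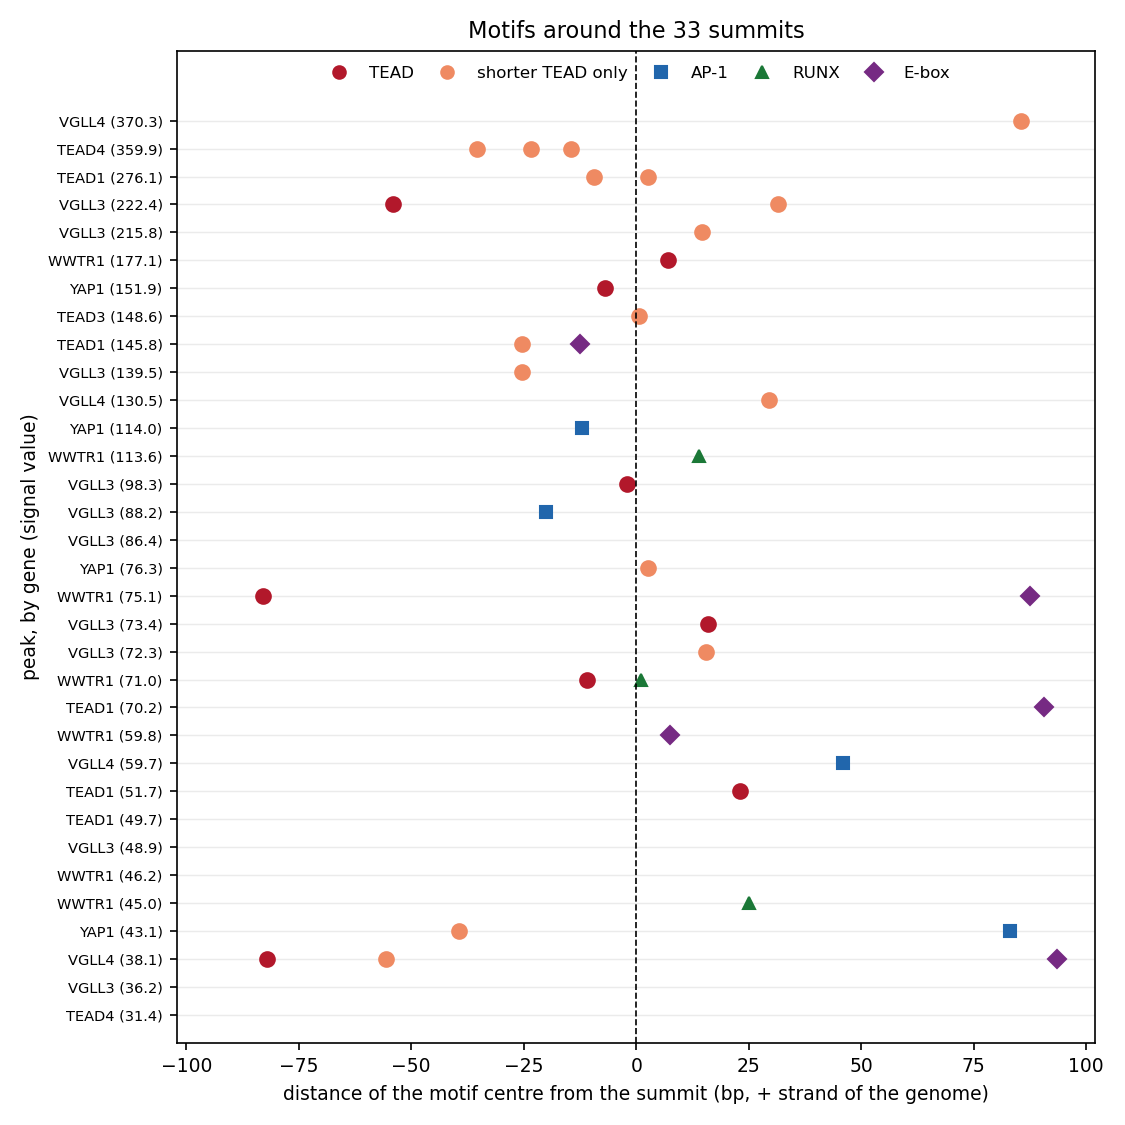
Each line is 1 of the 33 peaks, from the highest to the lowest signal value (in brackets after the gene), and symbols mark the distance of each motif from the summit in bp, counted along the plus strand. Lines without any symbol, such as the peak of TEAD4 with a signal value of 31.4, hold none of the motifs, and the 11 uppermost lines all carry a TEAD motif or its shorter form (orange only where it is not part of ACATTCC). The number 11 was picked because the next line is the first with neither form.

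The base in front of CATTCC was A in 9 of the 25 copies within 100 bp of the 33 summits, G in 9, T in 6 and C in 1. In the list it was A in 43.8% of copies, G in 33.8%, T in 13.4% and C in 8.96%, whereas in the flanking windows the bases were more even (A in 25.6%, G in 21.2%, T in 28.6% and C in 24.6%). Copies with G in place of A were therefore as frequent at these genes as the full motif.

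The repeated CATTCC of the TEAD1 and TEAD4 promoters was compared with the list after it had been seen. Copies on the same strand with at most 12 bp from start to start were found in 2 of the 33 peaks, in 235 peaks of the list (1.11%) and in 0.0616% of flanking windows. A spacing of exactly 12 bp, present at both TEAD1 and TEAD4, occurred in 19 peaks of the list (0.0900%). The spacing of 9 bp, present at TEAD4 only, was more common, with 104 peaks (0.493%). The 235 peaks had a median signal value of 100.6, below those at TEAD1 (276.1) and TEAD4 (359.9).

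Few of the possible sites coincided with a peak. The stretches searched around the 10 genes held 277 copies of ACATTCC, of which 9 (3.25%, Wilson 95% interval 1.72 to 6.06%) were within 100 bp of a summit. Across the chromosomes, 5304 of 502196 copies (1.06%, interval 1.03 to 1.08%) were. The chromosomes also include sequence far from any gene, whereas the stretches searched lie in and around genes. The 2 shares are therefore not from like regions, and their difference was not tested. TEAD1 and VGLL4 had the most copies, 52 each, with 1 at a peak in each case, whereas VGLL3 had 3 at a peak out of 22 and WWTR1 3 out of 39. In the RefSeq promoter windows (250 bases before to 50 after a TSS, GRCh38.p14), ACATTCC was found in 3.46% of 35116 promoters. For 8 of the 10 genes, all but TEAD1 and TEAD4, at least 1 window was matched, and YAP1 was the one that held ACATTCC. The windows of WWTR1 lay at TSSs inside the gene and not at its 5′ end, which lies upstream of its MANE Select transcript. TEAD2, WWTR1 and VGLL4 had several windows, so the count of genes is not of the same kind as the share of windows. The AP-1 motif, present in 4.95% of all promoters, was in none of the matched windows.

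The genes that act before and after YAP1 and TAZ were placed beside these by the same rule, from lists chosen with results of these data known. Of 18 genes of the Hippo kinases and their regulators, 16 (88.9%) had a TEAD4 peak, against 56.2% of protein-coding genes, and 10 (55.6%) had a summit within 2.5 kb of a TSS, against 16.6%. The median was 5.5 peaks per gene, over a median stretch searched of 183.8 kb. MOB1A, an activator of the LATS kinases, and LATS1 itself had none, whereas LATS2, the paralogous kinase, had 6 with a highest signal value of 462.3. Of 22 target genes of YAP1 and TEAD, 20 (90.9%) had a peak and 14 (63.6%) had a summit within 2.5 kb of a TSS. Their median was 6 peaks per gene, over a median stretch of 108.1 kb, compared with 112.4 kb for protein-coding genes. The matricellular genes CCN1 and CCN2 had 10 and 5 peaks with highest signal values of 573.0 and 617.2, both above the 370.3 of VGLL4, the highest at the 10 genes of the TEAD family and its cofactors. FOXF2 and IGFBP3 had none. AMOTL2, LATS2, PTPN14 and AJUBA (4 genes) stand in both lists.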

How the data were processed

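LX-2 chromatin was cross-linked, immunoprecipitated with an anti-TEAD4 antibody and sequenced with single-end reads. Mapping by the authors used Chromap and hg38, followed by the ENCODE IDR pipeline on replicates 1 and 3. The peak caller and the normalization are not given in the sources used here. The deposited list gives per peak a score (scaled IDR), a signal value, a −log10 q-value and a summit offset, added here to the start of the interval, which may place a summit 1 bp off.

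Genes, TSSs and MANE Select transcripts came from GENCODE release 44, and promoter windows from RefSeq. Each motif was looked for on either strand, up to 100 bp away from a summit. All peaks of genes with at most 6 peaks are named and, for VGLL3 and WWTR1, the one nearest to a TSS, the 3 strongest and those with ACATTCC, with others chosen after their values were seen. A gene outside the 10 is named where its TSS was nearer to a named peak or the summit lay in it, and from the pathway lists. The genes, lists and measures were chosen with earlier results of these data known. A planned comparison of protein sequences was not analysed here. Placement was tested on simulated data (300 of 300 genes equal to a direct search, 500 of 500 planted motifs found). Python 3.11.15, numpy 2.4.6, pandas 2.3.3, scipy 1.17.1, matplotlib 3.10.9 and samtools 1.23.1 were used.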

Additional observations from a re-analysis of the deposited data

How the results depend on the processing

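Of 53 alternatives computed over 5 results, 51 left the count within 1.5 times, or the value within the 95% interval, of the value reported. The exceptions were a distance of 100 kb, which raised the number of peaks from 33 to 55, and the shorter motif CATTCC, which raised the share of peaks with a TEAD motif from 27.3 to 60.6%. With 100 kb, 9 of the 10 genes had a peak, because TEAD2 and VGLL2 then gained one, and with every other setting 7 had. With 1 TSS per gene, 4 genes instead of 6 had a summit within 2.5 kb, and the share of all protein-coding genes for this setting is not given here. The number of peaks was otherwise 22 (above the median signal value of the list) to 33, the median signal value 75.7 to 122.2, and the share with ACATTCC 18.2% (within 50 bp) to 33.3% (in the whole interval). The falls to 22 peaks and to 4 genes stood at the limit of 1.5 times. A q-value of at most 0.05 removed none of the 33 peaks, so this setting could not change any of the 5 results. No paired analysis was possible because replicates 1 and 3 share a single list and no result comes from a test, and for the same reason no replicate could be left out. The depth is unknown, so a gene without a peak cannot be told from one with a site too weak for the list.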
